A study of Mus musculus with 12 samples.

Results

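The miR-29 family comprises 3 mature microRNAs (miRNAs) on the mouse array used here, named mmu-miR-29a, mmu-miR-29b and mmu-miR-29c, and all 3 were chosen by those names rather than by their values. They are 3 of 611 mouse miRNA names on the array and 3 of the 145 that were bright enough to be tested. Mature miRNAs were measured on 12 single-colour arrays from mouse embryonic fibroblasts of the C57BL/6 background. The cells were either ATF4 knockout (KO) or ATF4 wild type (WT). They were treated with 2 ug/mL tunicamycin for 12 h or 24 h, or left untreated, which gave 6 groups: KO and WT untreated, KO and WT at 12 h, and KO and WT at 24 h. Each group had 2 arrays from experiments described as independent. Whether the cells were primary or from an established line, and how many embryos they came from, is not given in the sources used here.

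A mature miRNA guides the silencing complex to messenger RNAs that pair with its seed, the bases near its 5′ end. The miR-29 family is known for repressing extracellular matrix genes, among them several collagens, elastin and fibrillin, and lower levels of it are known from fibrosis of the heart, lung and liver. ATF4 is a transcription factor made when the kinase PERK phosphorylates the initiation factor eIF2alpha, and tunicamycin blocks N-linked glycosylation and so loads the endoplasmic reticulum with unfolded protein. Collagen is itself a major cargo of that compartment in fibroblasts. No messenger RNA or protein was measured on these arrays, so neither matrix genes nor ATF4 itself can be read from them.

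The mature sequences are shown because they decide what the family members share and where probes could confuse them. They come from RefSeq (GRCm38.p6), with the seed, bases 2 to 8 counted from the 5′ end, in capitals.
miR-29a-3p: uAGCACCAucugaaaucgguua
miR-29b-3p: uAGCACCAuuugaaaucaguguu
miR-29c-3p: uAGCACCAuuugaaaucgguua

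The seed was the same in all 3, and in the RefSeq table of 1679 mature mouse names no other name carried it. Against miR-29c, miR-29a differed at a single position, C10U, with positions counted from the 5′ end. Against miR-29c, miR-29b differed by A18G, G21U and U22A over the 22 shared bases and was 1 base longer. The hairpins lie in pairs at 2 loci. Mir29a (mature strand at chr6:31062673-31062694) and Mir29b-1 (chr6:31063025-31063047) are on the minus strand of chromosome 6, with 275 bases between the hairpins. Mir29b-2 (chr1:195037091-195037113) and Mir29c (chr1:195037600-195037621) are on the plus strand of chromosome 1, with 426 bases between them. Mature miR-29b is therefore the sum of both loci, while miR-29a and miR-29c each come from 1 locus. The probe sequences were not used here, and cross-hybridisation between miR-29a and miR-29c was not tested.

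Signals were scaled array by array: the 75th percentile of 82 miRNAs that every array detected well above background served as the divisor, and the scaled signal was analysed on the log2 scale. The divisor spanned 203.5 to 791.2 units of raw signal, and 92 to 164 mouse miRNAs per array were well above background. Arrays of a group differed little in the untreated groups (pooled SD over the 145 tested miRNAs 0.13 log2 units in KO and 0.15 in WT) and more after tunicamycin (0.51 to 1.22). Of the fibroblast marker miRNAs, 5 to 6 of 7 were well above background on each array (summed scaled signal 33.7 to 33.9 in untreated KO and 43.3 to 44.0 in untreated WT, 29.6 to 30.5 in KO and 19.3 to 25.5 in WT at 12 h, and 26.2 to 35.4 in KO and 25.6 to 30.3 in WT at 24 h). None of the 7 epithelial or 4 neural markers was, and at most 1 marker was in each of the muscle, blood and endothelium, and pluripotent lists. All untreated arrays were on one slide and all tunicamycin arrays on the other, and slide and treatment cannot be told apart. All WT arrays sat in one row of their slide and all KO arrays in the other, and row and genotype cannot be told apart either. KO and WT at the same time and with the same replicate number shared a scan date.

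The second KO array at 24 h stood apart from the other KO arrays. This was examined over the 12 miRNAs outside the family that differed between KO and WT in the same direction both untreated and at 12 h. The values of the 24 h arrays were not compared in that choice. They entered it through the estimate of spread, the scaling miRNAs, the floor and the set of tested miRNAs, which all 12 arrays share. At 24 h the KO minus WT difference in that direction had a median of 1.16 log2 units at the second scan date and 1.96 at the first, against 1.53 to 2.02 in the untreated and 12 h pairs. For 8 of the 12 the second KO array lay further in the direction of WT than the first. The first KO array at 24 h had the lowest divisor of the 12 arrays (203.5) and the fewest mouse miRNAs well above background (92). The second had the most (164). Which of the 2 better reflects KO cells at 24 h was not tested. Results of the family at 24 h in KO cells are therefore also given without each of the 2 arrays.

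Untreated KO cells had less of all 3 family members than untreated WT cells, by 2.11-fold to 2.56-fold. For miR-29a the scaled signal was 0.998 and 1.08 in untreated KO, against 2.35 and 2.40 in untreated WT. For miR-29b it was 0.926 and 0.887 in untreated KO, against 2.33 and 2.32 in untreated WT. Both were bright on every array, and both KO arrays lay below both WT arrays by a gap many times the spread within either group. For miR-29c, the dimmest of the 3, the scaled signal was 0.0497 and 0.0544 in untreated KO, against 0.108 and 0.112 in untreated WT, again without overlap. Brightness depends on the probe, so the signals of different members cannot be compared as abundances. Whether miR-29a adds to the signal of the miR-29c probes was not tested, so the 3 members need not be separate results.

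**Figure D1:**
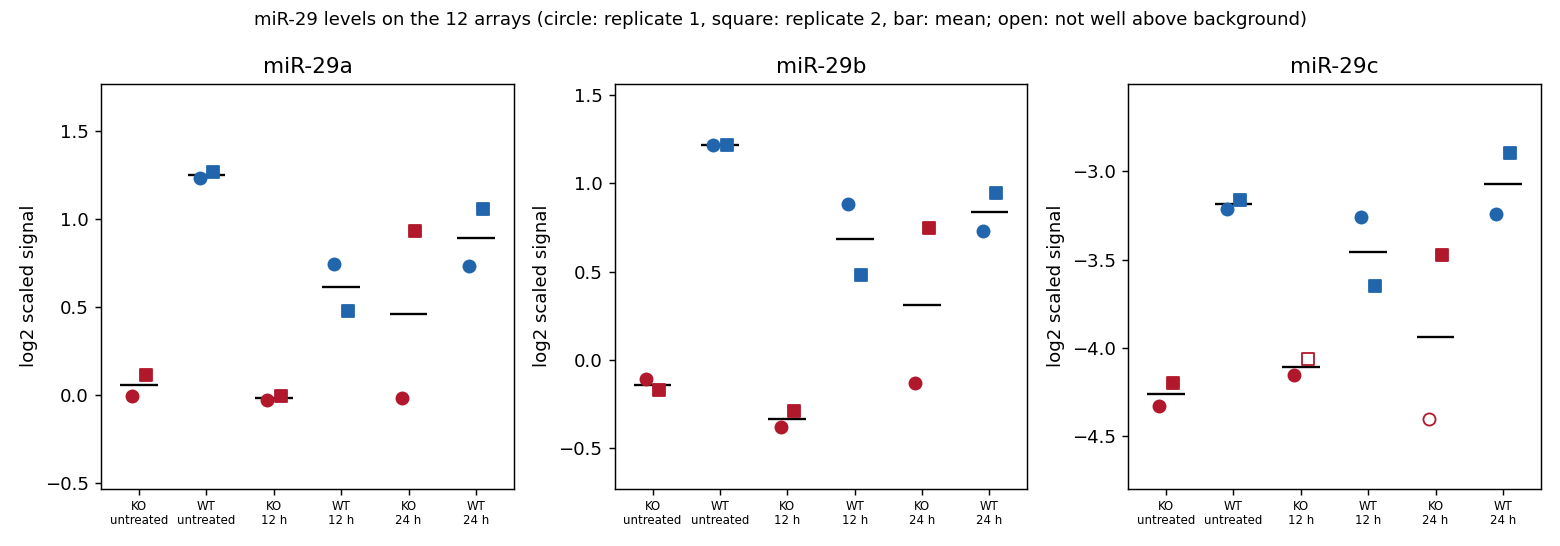
Log2 scaled signal of miR-29a, miR-29b and miR-29c on the 12 arrays, with KO in red to the left of WT in blue at each time; circles are replicate 1, squares replicate 2, bars group means, and open symbols arrays not well above background. Both untreated KO arrays and both 12 h KO arrays lie below both WT arrays of that time for all 3 members, while the second KO array at 24 h lies well above the first.

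In the fit over all 145 miRNAs (limma, adjusted by Benjamini-Hochberg), all 3 members were lower in untreated KO than in untreated WT at an adjusted p below 0.05. The log2 difference was -1.19 ± 0.29 for miR-29a (SE, n = 2 arrays per group, adjusted p 0.0207 by limma). It was -1.36 ± 0.27 for miR-29b (adjusted p 0.0103 by limma) and -1.08 ± 0.29 for miR-29c (adjusted p 0.0275 by limma). Of the 145 miRNAs, 25.5 percent were called lower in this comparison, and the median over all of them was -0.49. Relative to that median the members stood at -0.70, -0.87 and -0.59 log2 units, which gave them places 10, 8 and 12 counted from the lowest difference. Many other miRNAs were lower too, and without overlap between the groups they made up 66.9 percent of those tested, so a gap between the 2 pairs of arrays was common here.

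**Figure D2:**
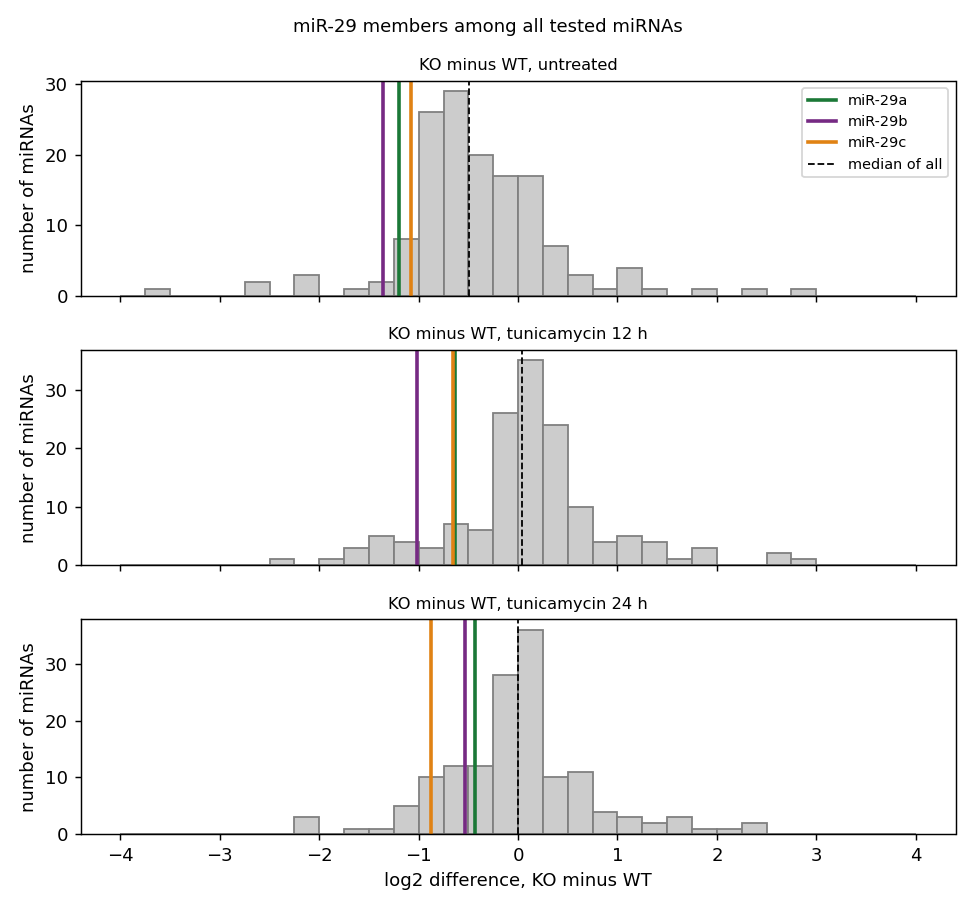
Number of tested miRNAs (vertical axis) by KO minus WT log2 difference (horizontal axis) untreated, at 12 h and at 24 h, with the 3 members as coloured lines and the median of all tested miRNAs dashed. The members lie left of the median at all 3 times, and the untreated distribution as a whole is shifted, with a median of -0.49.

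The size of the untreated difference changed with the scaling of the arrays, and the median of all miRNAs changed with it. With no scaling the median of all miRNAs was -0.14, and with the 75th percentile taken over all mouse miRNAs it was 0. Relative to the median, miR-29a, miR-29b and miR-29c stood at -0.65, -0.81 and -0.53 with no scaling. They stood at -0.63, -0.80 and -0.52 with that percentile. A divisor shifts all miRNAs of an array alike, so apart from the floor these relative values could not change. They are no test of the scaling. With no scaling, 12 miRNAs were called lower and 14 higher in untreated KO, against 37 lower and 10 higher with the scaling used. None of the 3 members passed the threshold under either. Dividing by the summed mouse miRNA signal gave the same direction, but this is another choice of divisor and depends mostly on the brightest miRNAs. The family made up 2.43 and 2.50 percent of that sum in untreated KO, against 4.34 and 4.43 percent in untreated WT. The raw signal of miR-29a was 708 and 857 units in untreated KO, against 1357 and 1336 in untreated WT.

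**Figure D3:**
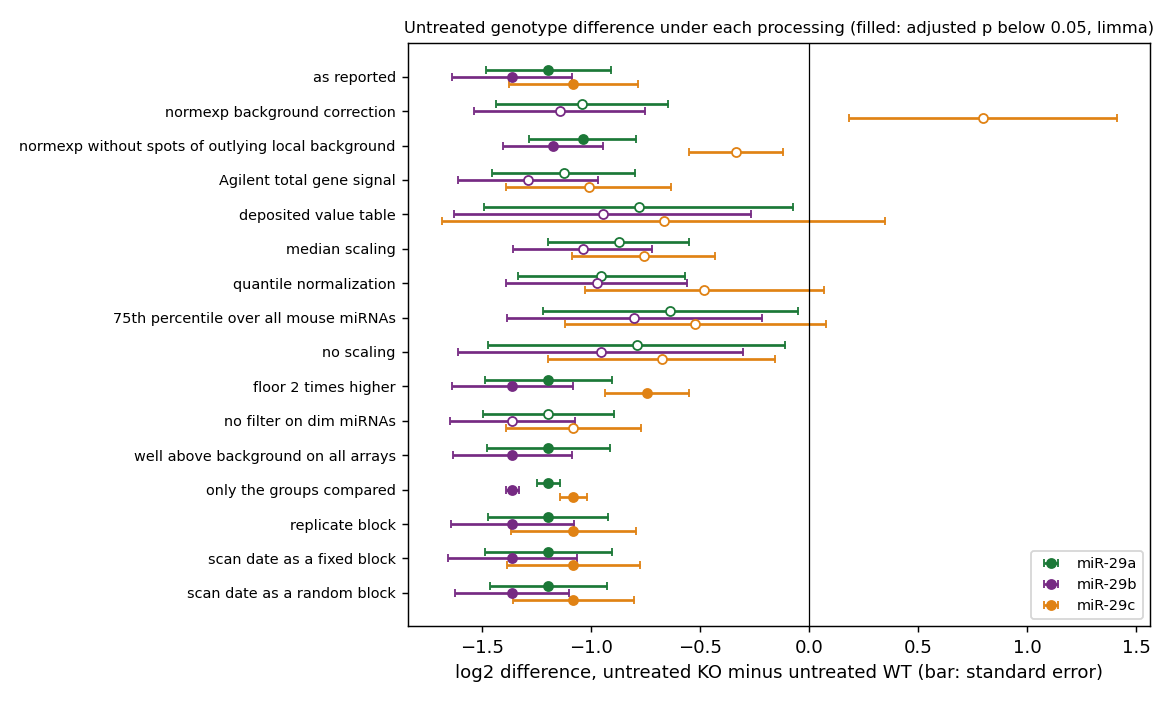
Log2 difference of untreated KO minus untreated WT, with its standard error, for each member under the reported processing and 15 alternatives; filled points have an adjusted p below 0.05 in limma. miR-29a and miR-29b are negative under all of them, and miR-29c is 0.80 with normexp background correction.

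Each member had 2 probes, with 7 to 10 usable spots per probe and array and no saturated spot. The brighter probe gave 2.82 to 3.35 times the signal of the dimmer one for miR-29a, 9.91 to 13.4 times for miR-29b and at most 1.36 times for miR-29c. The probes of a member gave nearly the same untreated genotype difference, -1.21 and -1.19 for miR-29a, -1.24 and -1.37 for miR-29b, and -1.04 and -1.11 for miR-29c. The result therefore did not rest on a single probe. Leaving out any 1 untreated array left the 3 differences between -1.39 and -1.01, but the calls were lost. Each of these fits leaves 1 array in a group, whose spread cannot be estimated from that group. Why the calls were lost was not tested.

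After 12 h of tunicamycin miR-29b was 2.03-fold lower in KO than in WT, and the other members were lower by an amount that did not pass the test. For miR-29b the scaled signal was 0.766 and 0.818 in KO at 12 h, against 1.85 and 1.39 in WT at 12 h. The log2 difference was -1.02 ± 0.27 (SE, n = 2 arrays per group, adjusted p 0.0373 by limma), in a comparison where 10.3 percent of the 145 miRNAs were called lower and the median was 0.041. It passed the threshold under 4 of 15 other ways of processing and in 2 of 12 fits that left out 1 array. Over the 15 other ways of processing 0 to 41 of the 145 miRNAs were called in this comparison, against 36 as reported. With scan date, which these KO and WT arrays share, as a fixed block the adjusted p of miR-29b was 0.0703 by limma and the call was lost. For miR-29a the scaled signal was 0.982 and 0.995 in KO at 12 h, against 1.68 and 1.39 in WT at 12 h. Its log2 difference of -0.63 ± 0.29 had an adjusted p of 0.174 by limma. For miR-29c it was 0.0562 and 0.0598 in KO at 12 h, against 0.104 and 0.0795 in WT at 12 h, a log2 difference of -0.65 ± 0.29 (adjusted p 0.174 by limma). miR-29c was not well above background on the second of these KO arrays. In all 3 members both KO arrays were below both WT arrays, as in 18.6 percent of the tested miRNAs.

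At 24 h no member passed the test between KO and WT, and the KO arrays disagreed with each other. For miR-29a the scaled signal was 0.988 and 1.91 in KO at 24 h, against 1.66 and 2.08 in WT at 24 h. For miR-29b it was 0.912 and 1.68 in KO at 24 h, against 1.66 and 1.93 in WT at 24 h. In both, the second KO array lay within the WT range while the first was near the untreated KO level. For miR-29c it was 0.0472 and 0.0898 in KO at 24 h, against 0.106 and 0.134 in WT at 24 h, the 1 member without overlap, which 20 percent of the tested miRNAs also showed. The first of these KO values was not well above background.

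The log2 differences at 24 h were -0.44 ± 0.29 for miR-29a (adjusted p 0.388 by limma), -0.53 ± 0.27 for miR-29b (0.289) and -0.87 ± 0.29 for miR-29c (0.101), with 15.2 percent of the miRNAs called in either direction and a median of 0. Their 95 percent intervals were -1.11 to 0.24, -1.18 to 0.12 and -1.57 to -0.18. Without the second KO array at 24 h, the differences were -0.91, -0.97 and -1.34. Without the first KO array at 24 h instead, they were 0.040, -0.090 and -0.41. Either choice leaves 1 KO array, whose spread cannot be estimated from its own group.

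Within scan dates the genotype difference ran the same way throughout. All 3 members were lower in KO than in WT in all 6 pairs of arrays that shared a time and a scan date. The pair differences spanned -1.24 to -0.12 for miR-29a, -1.39 to -0.20 for miR-29b and -1.16 to -0.41 for miR-29c. The smallest were those of the second 24 h pair for miR-29a and miR-29b and of the second 12 h pair for miR-29c. Of the 145 tested miRNAs, 18.6 percent were lower in KO in all 6 pairs and 8.97 percent were higher in all 6.

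**Figure D4:**
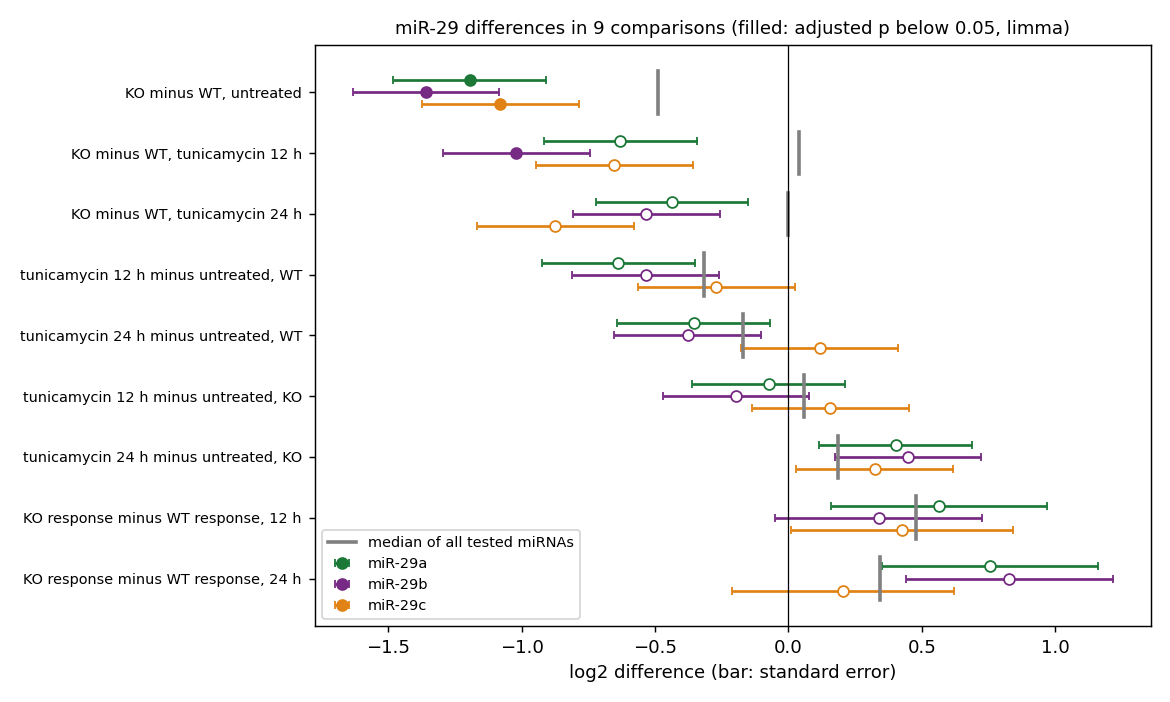
Log2 differences of the 3 members in the 9 comparisons, with their standard errors, and the median of all 145 tested miRNAs as a grey bar; filled points have an adjusted p below 0.05 in limma. The 4 filled points are the 3 members untreated and miR-29b at 12 h, all KO minus WT.

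No member was lower in tunicamycin-treated than in untreated WT cells by an amount that passed the test. miR-29a and miR-29b had lower values at both times. In WT at 12 h against untreated WT the log2 difference was -0.64 ± 0.29 for miR-29a (adjusted p 0.148 by limma), -0.53 ± 0.27 for miR-29b (0.212) and -0.27 ± 0.29 for miR-29c (0.589). In this comparison 31 percent of the miRNAs were called and the median was -0.32, so the values of the family lay near those of miRNAs in general. Both 12 h arrays lay below both untreated arrays in all 3 members, as in 53.8 percent of the miRNAs tested. In the fit without either one of the KO arrays at 24 h, which share the estimate of spread, 2 members passed the threshold, and 42.1 percent of the miRNAs did.

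In WT at 24 h against untreated WT the log2 difference was -0.35 ± 0.29 for miR-29a (adjusted p 0.456 by limma), -0.38 ± 0.27 for miR-29b (0.403) and 0.12 ± 0.29 for miR-29c (0.850). Here 15.2 percent of the miRNAs were called and the median was -0.17. The treated arrays of miR-29a and miR-29b lay below the untreated ones without overlap, as in 52.4 percent of miRNAs, while those of miR-29c fell on either side.

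With the scaling used, KO cells at 12 h had nearly their untreated levels of the family. Against untreated KO the log2 difference was -0.073 ± 0.29 for miR-29a (adjusted p 0.974 by limma), -0.20 ± 0.27 for miR-29b (0.809) and 0.16 ± 0.29 for miR-29c (0.852). Only 1.38 percent of the miRNAs were called, and the median was 0.059. Over the other ways of processing the difference spanned -0.83 to -0.056 for miR-29a and -0.95 to -0.15 for miR-29b. For miR-29c it spanned -0.90 to 0.22. No member passed the threshold under any of them, and with no scaling the median of all miRNAs was -0.58. Both 12 h arrays lay below both untreated arrays for miR-29a and miR-29b, as in 28.3 percent of the miRNAs. The 95 percent intervals reached from -0.75 to 0.60, -0.84 to 0.45 and -0.54 to 0.85, and they include the WT values at 12 h.

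KO cells at 24 h had higher mean values than untreated KO, all from the second array. Against untreated KO they differed by 0.40 ± 0.29 log2 units for miR-29a (adjusted p 0.479 by limma), 0.45 ± 0.27 for miR-29b (0.389) and 0.32 ± 0.29 for miR-29c (0.543), with 2.76 percent of the miRNAs called and a median of 0.19. Untreated and 24 h arrays shared no scan date, so they can be matched only by replicate number. Matched so, the second KO array exceeded the untreated one by 0.82, 0.92 and 0.72, whereas the first differed by -0.014, -0.023 and -0.077. Without the second KO array the differences were -0.073, 0.0085 and -0.14. Without the first they were 0.88, 0.89 and 0.79.

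Whether the response to tunicamycin differed between genotypes was tested as an interaction, with the response of WT subtracted from that of KO. At 12 h this was 0.56 ± 0.40 for miR-29a (adjusted p 0.421 by limma), 0.34 ± 0.39 for miR-29b (0.626) and 0.43 ± 0.42 for miR-29c (0.580), where 22.8 percent of the miRNAs were called and the median was 0.48. With only the 4 groups of this comparison in the fit, miR-29a passed the threshold (adjusted p 0.0398 by limma), as did 32.4 percent of the miRNAs. At 24 h it was 0.76 ± 0.40 for miR-29a (adjusted p 0.293 by limma), 0.83 ± 0.39 for miR-29b (0.255) and 0.21 ± 0.42 for miR-29c (0.859), where 8.28 percent were called and the median was 0.34. Without the second KO array at 24 h these were 0.28, 0.39 and -0.26. Without the first they were 1.23, 1.27 and 0.67. Both responses share the untreated arrays with the untreated genotype comparison.

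The balance among the members could be read within each array, where no scaling enters. The log2 level of miR-29b minus that of miR-29a spanned -0.36 to -0.11 on the KO arrays (median -0.23) and -0.11 to 0.14 on the WT arrays (median -0.01). miR-29b thus stood slightly lower beside miR-29a in KO cells, and the ranges overlapped only at -0.11. The log2 level of miR-29c minus that of miR-29a was -4.33 and -4.32 in untreated KO, -4.13 and -4.06 in KO at 12 h and -4.39 and -4.41 in KO at 24 h. In WT it was -4.45 and -4.43 untreated, -4.01 and -4.13 at 12 h and -3.97 and -3.95 at 24 h. These differences describe unequal changes of the members, were not tested, and for miR-29c rest on dim signals, 2 of them not well above background.

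Across the 12 arrays the members followed each other closely. As a description, Pearson's r of the log2 levels was 0.98 between miR-29a and miR-29b, 0.93 between miR-29a and miR-29c and 0.93 between miR-29b and miR-29c. These values share arrays, scaling and the genotype difference, and cross-hybridisation between miR-29a and miR-29c was not tested. Among 141 other tested miRNAs with a varying signal, the likest to miR-29a were miR-20b (r 0.90), miR-331-3p (0.90) and miR-20a (0.88). For miR-29b they were miR-155 (0.93), miR-20b (0.92) and miR-17* (0.91), and for miR-29c miR-31 (0.93), miR-155 (0.93) and miR-20b (0.93). miR-20a and miR-17* come from the miR-17~92 cluster and miR-20b from its paralogous cluster, and these clusters are known for promoting proliferation. miR-196a, encoded within the Hox gene clusters, was the least like all 3 (r -0.89, -0.93 and -0.92).

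Some of these miRNAs passed the test between the genotypes, which is no independent result, since they were chosen for following members that differ by genotype. miR-155, which is known from immune activation, averaged -4.84 in untreated KO and -2.16 in untreated WT on the log2 scale, a difference of -2.68 ± 0.26 (SE, n = 2, adjusted p 0.000471 by limma). Its untreated KO levels, -4.83 and -4.85, lay near the floor of -4.93, though well above background on both arrays. miR-31 differed by -0.86 ± 0.15 in untreated cells (adjusted p 0.00843 by limma) and by -0.95 at both 12 h and 24 h (adjusted p 0.00580 and 0.00904 by limma). miR-196a was at least 6.55-fold higher in untreated KO than in untreated WT (adjusted p 0.0103 by limma), where it was not well above background on either array. For this bound, a WT value under the dimmest level its array detected well above background was set to that level. The untreated KO minus WT values of miR-20b and miR-20a were -1.03 and -0.94 (adjusted p 0.125 and 0.134 by limma).

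The family was set beside 26 miRNAs that earlier work ties to fibroblast activation and matrix production, of which 18 were tested. In untreated cells 4 of the 18 were lower and 2 higher in KO than in WT, with 32.4 percent of all 145 called in either direction. The list's median difference was -0.52 and that of all miRNAs -0.49. Besides miR-155 and miR-31, miR-146a, which restrains inflammatory signalling, was at least 6.53-fold lower in untreated KO, where it was not well above background (adjusted p 0.0103 by limma). miR-199a-5p, linked to fibrosis through the caveolin gene Cav1, was higher in untreated KO by 2.43 ± 0.37 (adjusted p 0.00459 by limma). Its levels were 0.085 and -0.0033 in untreated KO, against -2.35 and -2.43 in untreated WT.

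At 12 h 4 of the 18 were lower and 3 higher in KO, with 24.8 percent of all 145 called in either direction and list and overall medians of 0.093 and 0.041. KO minus WT was -2.42 ± 0.26 for miR-155, -0.95 ± 0.15 for miR-31, 2.62 ± 0.37 for miR-199a-5p and 1.39 ± 0.15 for miR-26a (adjusted p 0.00201, 0.00580, 0.00427 and 0.00201 by limma). miR-155 was well above background on only 1 of the 2 KO arrays at 12 h and at 24 h, and at 12 h its KO levels were at or near the floor, on which the size of the difference then depends. At 24 h 2 were lower and 3 higher, where 15.2 percent of all miRNAs were called, with medians of 0.050 and 0. KO minus WT was -2.03 ± 0.26 for miR-155 and 2.07 ± 0.37 for miR-199a-5p (adjusted p 0.00421 and 0.0120 by limma). miR-26a, whose mean log2 level was -1.36 in KO and -2.46 in WT at 24 h, was also higher in KO (adjusted p 0.00539 by limma). Members of this list thus differed between the genotypes in both directions at every time.

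In WT at 12 h 6 of the 18 were lower than in untreated WT and none was higher. Slide and treatment cannot be told apart in this comparison. Of all miRNAs 31 percent were called, with medians of -0.44 for the list and -0.32 for all. The log2 difference was -1.21 ± 0.15 for miR-26a, -1.06 ± 0.19 for miR-21, an abundant fibroblast miRNA, and -1.19 ± 0.21 for miR-143, a smooth muscle and fibroblast miRNA (adjusted p 0.00206, 0.00660 and 0.00684 by limma). miR-146a was at least 6.44-fold lower (adjusted p 0.0101 by limma). In WT at 24 h 3 were lower and none higher than in untreated WT, where 15.2 percent of all miRNAs were called, with medians of -0.22 and -0.17. The log2 difference was -1.18 ± 0.15 for miR-26a, -1.23 ± 0.21 for miR-143 and -0.78 ± 0.19 for miR-30b (adjusted p 0.00344, 0.00976 and 0.0305 by limma). miR-143 was well above background on 1 of the 2 treated arrays at each time, and miR-30b on neither at 24 h, where it was at least 1.21-fold lower. In KO none of the 18 passed the test at 12 h or at 24 h, with list medians of -0.067 and 0.15.

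The response difference between genotypes was higher in KO for 4 of the 18 at 12 h and for 1 at 24 h, and lower for none, where 22.8 and 8.28 percent of all miRNAs were called. The list medians were 0.39 and 0.33, against 0.48 and 0.34 for all miRNAs. At 12 h these were miR-26a (1.27 ± 0.22), miR-30e (0.97 ± 0.25), miR-21 (0.97 ± 0.26) and miR-146a (2.71 ± 0.77), with adjusted p of 0.00917, 0.0346, 0.0395 and 0.0438 by limma. The value of miR-146a depends on the floor, since it was not well above background in 3 of the 4 groups. At 24 h it was miR-26a (0.97 ± 0.22, adjusted p 0.0416 by limma). The miR-29 members were not among the called miRNAs in any of these response comparisons.

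The passenger strands of the family were near or below background. miR-29a* and miR-29c* were not well above background on any array. miR-29b* was on 10 of 12, and its log2 level averaged -4.71 ± 0.30 in untreated KO and -3.70 ± 0.054 in untreated WT (SD, n = 2 each). Its difference of -1.02 ± 0.34, against -1.36 for miR-29b, did not pass the threshold (adjusted p 0.0555 by limma). On the second untreated KO array it lay at the floor (log2 -4.93). At 12 h and 24 h its KO minus WT values were -0.55 and -0.70 (adjusted p 0.340 and 0.259 by limma). At each of these times it was well above background on only 1 of the 2 KO arrays.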

How the data were processed

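Total RNA was labelled with Cy3 and hybridised to Agilent mouse miRNA arrays. The authors deposited 1 scanner table per array, made with Agilent Feature Extraction 10.7.1.1 per the submitters' processing notes. Its processed signal is an intensity on a linear scale, background-corrected per spot per the file headers, and its other deposited columns used here are 0 or 1 flags per the file headers. The series table that the authors deposited holds log2 values that match the log2 of Agilent's total gene signal, with undetected miRNAs blank. These values were not scaled between arrays.

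Processed signals of a probe's spots were averaged after control and outlier spots were dropped, and the probes of a miRNA were added up. The divisor was the 75th percentile, per array, of the 82 miRNAs that all arrays detected well above background. Scaled signals under 0.0328 (log2 -4.93) were set to that floor, the middle value, across arrays, of the 1st percentile among detected miRNAs, and log2 was taken. Detection of a probe required the scanner's flag for well above background on 50 percent or more of its spots, and a miRNA needed 1 such probe. Tests covered the 145 mouse miRNAs detected on the 2 arrays of any group. All 12 arrays entered one limma 3.58.1 model in R 4.3.3 with a mean per group, 9 contrasts and eBayes (two-sided, 6 residual degrees of freedom, prior 1.02). P-values were adjusted by Benjamini-Hochberg across those 145, and 0.05 was the threshold. With 2 arrays per group, the p-values reflect only how far these arrays spread, and array number limits the precision. The fit was tested on simulated data with independent normal noise of the same size in all groups. These had no floor and no deviations shared within a scan date, so the simulation does not cover those features of the arrays.

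The members and lists were chosen with earlier results of these data known. Named outside the family were, per member, the 3 most and the 1 least correlated miRNAs, and up to 4 called members of the matrix list per comparison with the smallest p; the miRNAs that describe the second KO array at 24 h were chosen after the data were seen. Same-numbered KO and WT arrays deviated together (correlation of deviations 0.68 untreated, 0.95 at 12 h, 0.83 at 24 h), while untreated and tunicamycin arrays did not (-0.54 to -0.24). Alternatives covered background correction, signal measure, scaling, floor, filter, spread estimate, blocks (statmod 1.5.0) and leaving out each array. Normexp used the median spot signal, since the files hold no mean signal column.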

Additional observations from a re-analysis of the deposited data

How the results depend on the processing

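Of 708 alternative values of the 3 members over 9 comparisons, 587 kept direction and side of the threshold, 57 lost it, 17 gained it and 47 changed sign. In untreated KO against WT, 3 members were called as reported; 0 were called with normexp background correction, Agilent total gene signal, the deposited table, median scaling, quantile normalization, the 75th percentile over all mouse miRNAs, no scaling and no filter, and 0 to 3 when 1 array was left out. At 12 h, KO against WT, 1 was called as reported; 0 were called under those settings except median scaling (1), and also 0 with normexp without spots of outlying local background (added after seeing the data), a floor 2 times higher, only the groups compared and scan date as a fixed block, with 0 to 3 when 1 array was left out. Leaving out 1 array gave 0 to 3 at 24 h, KO against WT, 0 to 2 in WT at 12 h, 0 to 3 in KO at 24 h and 0 to 2 for the response difference at 24 h; only the groups compared gave 1 for that at 12 h. With the replicate block 3 members were called untreated, 1 at 12 h and 0 in the other 7 comparisons, as without it. Over all miRNAs it called 54 untreated, 37 at 12 h and 20 at 24 h (KO against WT), 51 at 12 h and 28 at 24 h in WT, 2 at each time in KO, and 33 at 12 h and 15 at 24 h for the response difference. Only KO at 24 h, with 4 as reported, moved by over 1.5 times.

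Signs changed as follows, with the log2 value in each case. Normexp: miR-29c 0.047 (WT, 12 h), -0.90 (KO, 12 h), -0.59 (KO, 24 h), 0.80 (KO minus WT, untreated), -0.95 and -1.46 (response difference at 12 h and 24 h). Deposited table: miR-29c -0.70 (WT, 24 h), -0.50 (KO, 12 h), KO at 24 h -0.74, -0.70 and -1.48 (miR-29a, miR-29b, miR-29c), response difference at 12 h -0.15 (miR-29b) and -0.063 (miR-29c) and at 24 h -0.78 (miR-29c). Median scaling: miR-29c 0.025 (WT, 12 h), -0.045 (KO, 12 h), -0.070 and -0.13 (response difference at 12 h and 24 h), miR-29b -0.16 (response difference, 12 h). Quantile: miR-29c -0.52 (KO, 12 h), -0.35 (KO, 24 h), -0.45 (response difference, 24 h), and -0.087, -0.44 and -0.24 for the 3 members (response difference, 12 h). The 75th percentile over all mouse miRNAs: miR-29c -0.60 (KO, 12 h), then for the 3 members -0.43, -0.38 and -0.51 (KO, 24 h), -0.31, -0.54 and -0.45 (response difference, 12 h), -0.30, -0.23 and -0.85 (response difference, 24 h). No scaling: miR-29c -0.71 (WT, 24 h), -0.53 (KO, 12 h), then -0.74, -0.69 and -0.50 (KO, 24 h), and miR-29b -0.16 and miR-29c -0.074 (response difference, 12 h). Leaving out 1 array: miR-29c -0.055 to 0.29 (WT, 24 h), -0.14 to 0.79 (KO, 24 h) and -0.26 to 0.67 (response difference, 24 h), miR-29a -0.91 to 0.040 (KO minus WT, 24 h) and -0.073 to 0.88 (KO, 24 h). The causes were not tested.

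Over all tested miRNAs the counts called ranged over the alternatives, with 1 array left out in brackets: untreated 47 as reported, 0 to 90 (12 to 73); 12 h 36, 0 to 41 (12 to 49); 24 h 22, 0 to 24 (5 to 44), all KO against WT; WT at 12 h 45, 0 to 51 (19 to 61) and at 24 h 22, 0 to 63 (9 to 47); KO at 12 h 2, 0 to 18 (1 to 14) and at 24 h 4, 0 to 55 (1 to 37); response difference at 12 h 33, 0 to 47 (10 to 48) and at 24 h 12, 0 to 23 (6 to 34). With normexp the median of all miRNAs in untreated KO against WT was 0.67. miR-29c could not be tested with the filter for all arrays. Signal over background limits miR-29c, which was not well above it on 2 arrays.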

Other observations

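The scanner tables hold, beside each probe's signal, Agilent's total gene signal per miRNA. For miR-29a, miR-29b and miR-29c it matched the sum over the miRNA's own probes within 2 percent on all 12, 12 and 11 arrays where the miRNA was detected. For the passenger strand miR-29b* it was 246 to 900 units on 11 arrays, 36.5 to 96.5 times the 3.42 to 15.1 units of its own probes. On all 11 it matched, within 2 percent, the miR-29b total plus those probes. The deposited table, which follows the total gene signal, therefore lists miR-29b* at about the level of miR-29b, and the values of miR-29b* in the report were taken from its own probes.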
